A study of Arabidopsis thaliana with 8 samples.

Results

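In primary roots of Arabidopsis thaliana, 73 loci were chosen because their transcripts were higher at 7 than at 4 days when the shoot was lit, without such a difference with age in darkness. The choice used CPM, the share of a library's counts that falls on a locus, scaled to one common library size. A locus was taken when its mean in lit-shoot roots at 7 days was at least 4 times that at 4 days, when both 7-day lit-shoot libraries reached 3 CPM, and when its dark mean at 7 days was below 2 times that at 4 days. Of the 33602 loci counted, 33323 lay on chromosomes 1 to 5, and 110 of these met the requirements on lit-shoot roots. The requirement on dark roots then left out 37, so that 73 remained.

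The study asked how roots respond when the shoot is illuminated. All seedlings were accession Col-0, wild type, grown at 21 °C on sucrose-free Murashige and Skoog plates. Lit-shoot seedlings stood in a modified D-Root device, which keeps roots shaded while the shoot receives white light, here 16 h at 130 µmol and 8 h of darkness a day. Dark seedlings grew on foil-wrapped plates. Groups are named lit 7-d, lit 4-d, dark 7-d and dark 4-d roots, each with 2 independent biological samples of about 70 pooled seedlings. Where a pair of values is given for a group, the first is replicate 1. The counts come from whole roots, so that fewer cells of a type and less RNA per cell cannot be told apart.

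Arabidopsis roots take up iron by reduction. Protons released by the root dissolve ferric iron, the reductase FRO2 turns it into ferrous iron at the cell surface, and the transporter IRT1 carries it in, while nicotianamine binds iron inside the plant. Under iron shortage this set is switched on by the factor FIT together with a small group of basic helix-loop-helix (bHLH) proteins, of which bHLH38 is one. A second system seen among the chosen loci makes glucosinolates, the sulfur-rich defence compounds of the cabbage family: the methionine side chain is lengthened in the plastid, and cytochromes P450, glutathione, glucose and sulfate then build the finished molecule.

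Library totals lay between 25326045 and 30555290 counts. The edgeR quasi-likelihood test covered 20936 genes in one fit of all 8 libraries, with a common biological coefficient of variation of 14.9%, and genes were called at a Benjamini-Hochberg adjusted p below 0.05. All 12 root identity markers passed the filter on low counts, and their summed level was 244.5 and 281 CPM in lit 7-d roots, 439 and 421 CPM in lit 4-d roots, 187 and 214 CPM in dark 7-d roots and 292 and 367 CPM in dark 4-d roots. The 16 shoot markers summed to 64.2 and 70.2 CPM in lit 7-d roots, 46.3 and 41.6 CPM in lit 4-d roots, 49.9 and 48.7 CPM in dark 7-d roots and 65.0 and 49.4 CPM in dark 4-d roots, most of it from the epidermal gene KCS10. MUTE, FMA and EPF1 had no count in any library, and STM, CLV3 and AFO had at most 0.0395 CPM. The 37 nuclear photosynthesis genes summed to 217 and 335 CPM in lit 7-d roots, against 876 and 511 CPM in lit 4-d roots, the opposite order to the 73 loci.

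Summed over the 73 loci, transcripts held 3318 and 3267 CPM in lit 7-d roots, 423 and 658 CPM in lit 4-d roots, 211 and 179.8 CPM in dark 7-d roots and 309 and 279.6 CPM in dark 4-d roots. The ratio of lit 7-d to lit 4-d means ran from 4.01 to 37.6, with a median of 5.31. Both lit 7-d libraries exceeded both lit 4-d libraries for 71 loci, and exceeded all 6 other libraries for 62. The choice by ratio favours such a separation, and its share over all genes is not given here. All 73 passed the filter on low counts. These values are what the choice was made on, and they are given as a description. For the same reason nothing is read from the calls: 50 of the 73 were called higher in lit 7-d than in lit 4-d roots and none lower, where 2.13% of all genes tested were called higher and 2.1% lower. Without lit 4-d replicate 1 none of the 73 was called by edgeR (64 had an unadjusted p below 0.05, and no gene of the table was called higher), without lit 4-d replicate 2 the count was 15, and without lit 7-d replicate 1 it was 31. Between dark 7-d and dark 4-d roots 1 of the 73 was called higher and 15 lower, where 13.3% of genes tested were called higher and 18.3% lower. In the light by age interaction 34 were called higher and none lower, where 9.03% of genes tested were called higher and 5.57% lower.

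**Figure D1:**
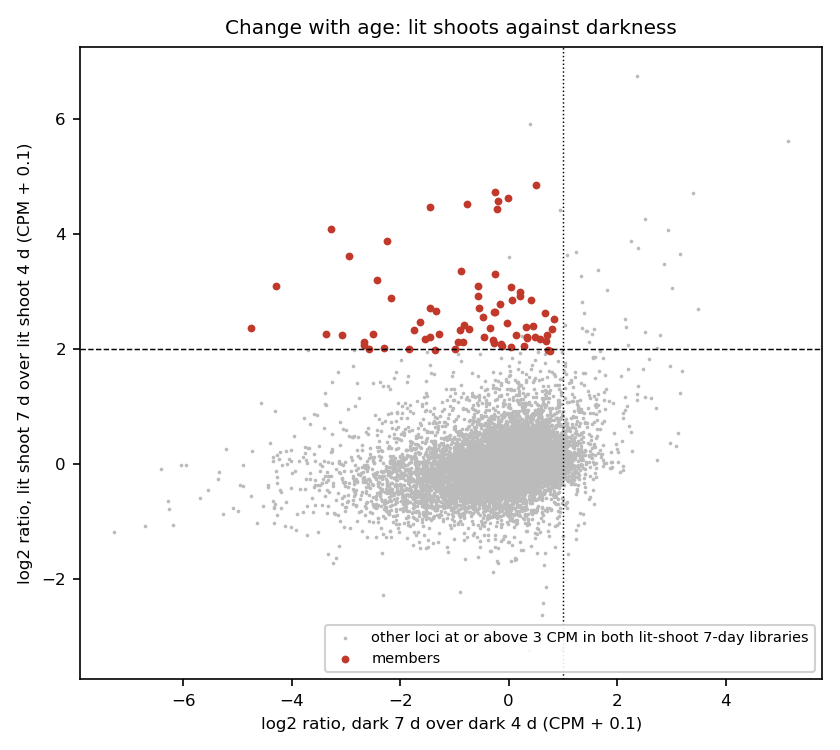
Log2 ratio of group means at 7 over 4 days, computed on CPM + 0.1, in dark roots (horizontal axis) and in lit-shoot roots (vertical axis); red points are the 73 chosen loci and grey points all other loci at or above 3 CPM in both lit 7-d libraries. The dashed and dotted lines mark ratios of 4 and 2; the red points fill the upper left, and some lie slightly under the dashed line because 0.1 CPM was added before the ratio was taken.

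Some loci stood close to the limits. Just inside the ratio of 4 were AT5G05960 at 4.01, FAH1 at 4.05 and WAKL10 at 4.08, and just outside were ATMPK13 at 3.999, GSTF14 at 3.979 and ICS2 at 3.966. At the dark limit, PLP6 (1.81), GSTL1 (1.81) and LTP2 (1.75) were kept, while OCT1 (2.05), AT5G38910 (2.1) and AT4G10510 (2.56) were left out. The lower lit 7-d library stood at 3.01, 3.01 and 3.02 CPM for AT5G58840, AT3G18900 and ABCB2, which were kept, and at 2.94, 2.85 and 2.75 CPM for AT1G76800, AT5G03390 and AT1G66020, which were not. Of the 37 loci left out by the dark limit, 12 were below 1 CPM in every dark library, and 5 of the 37 had at most 10 counts there in all.

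By what their products are annotated or known to do, the loci fell into 9 roles. There were 5 loci of iron acquisition, 8 of methionine-derived glucosinolate synthesis, 8 grouped as enzymes of amino acids, glutathione and sugars, and 8 of terpene, phenylpropanoid and methyl transfer reactions. A further 11 were of lipids and plant surfaces, 11 were transporters, and 7 were of wall, peroxidase and peptidase functions. The rest were 5 regulators or immune receptors, and 10 other or unknown loci. The group of amino acid, glutathione and sugar enzymes also holds the storage protein gene VSP1 and the patatin-like gene PLP6, which its name does not describe. The roles were assigned after the values had been seen.

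**Figure D2:**
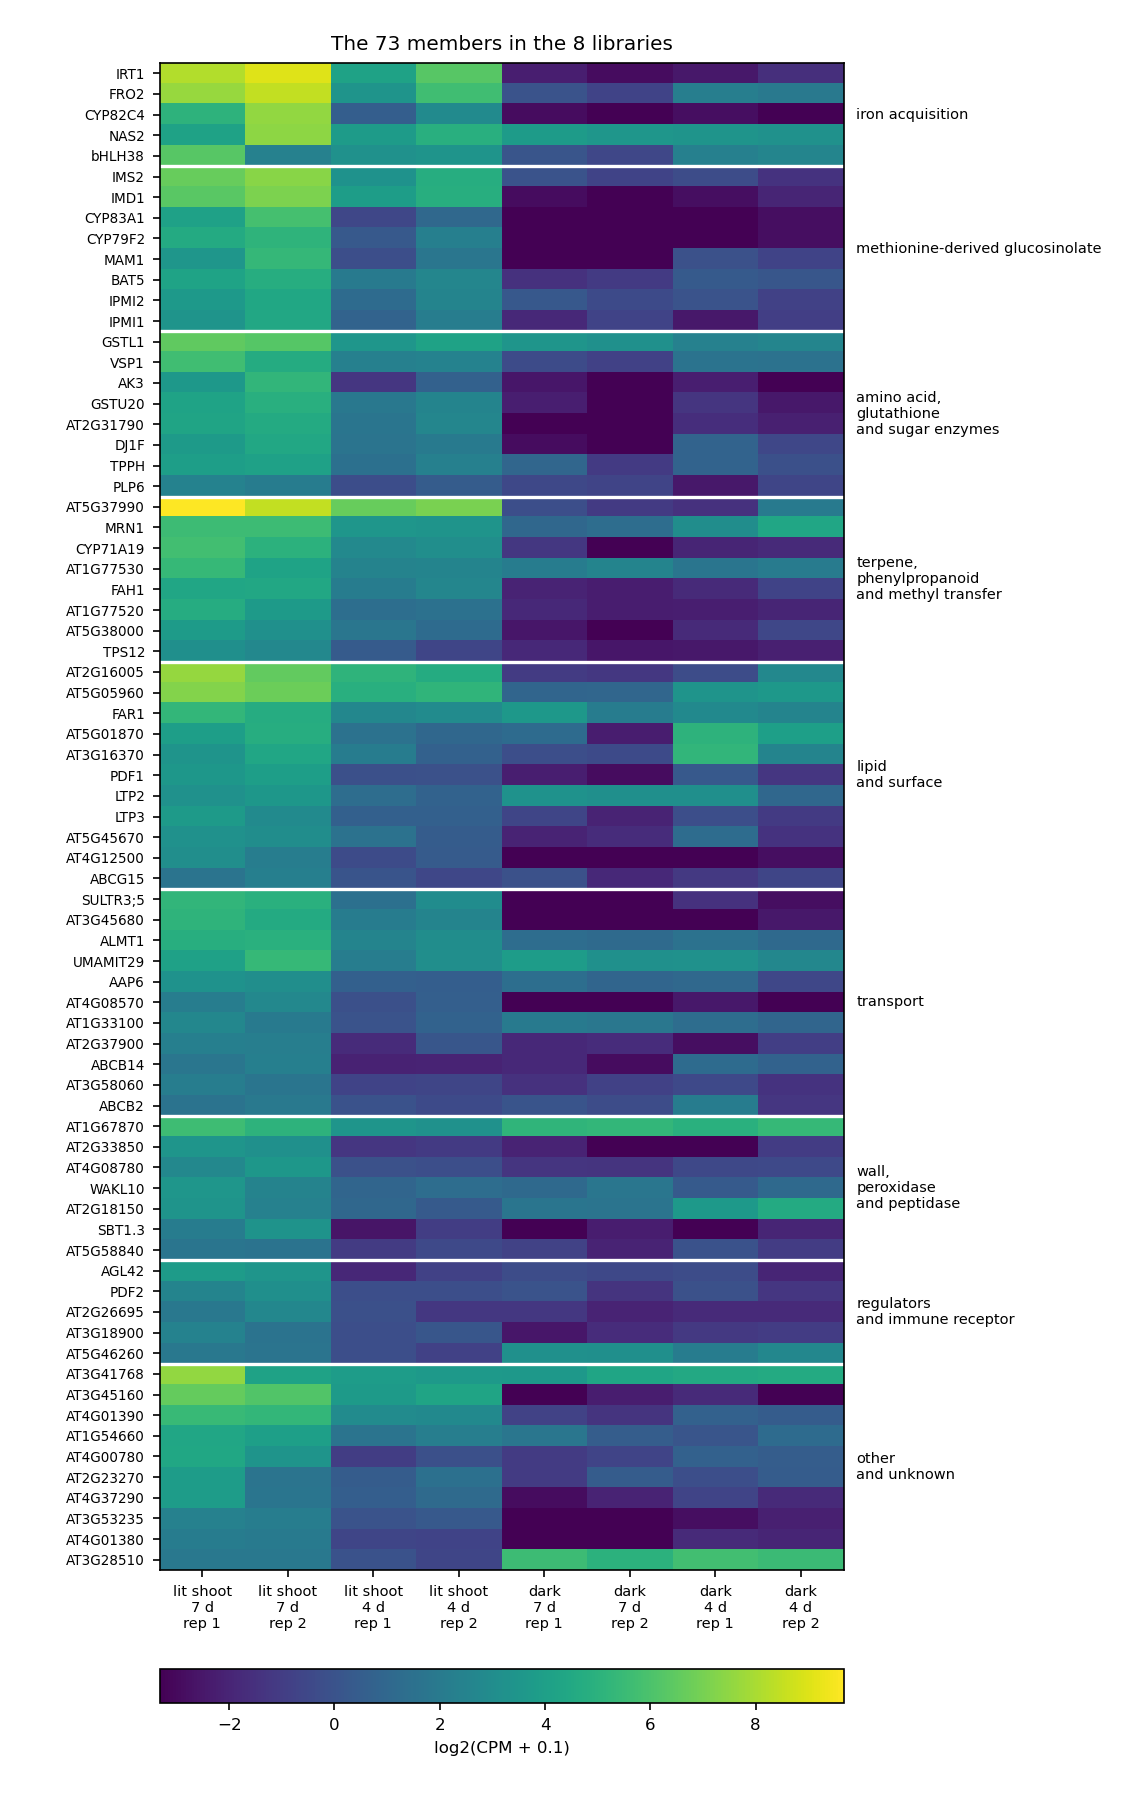
Level of each of the 73 loci, as log2 of CPM + 0.1, in the 8 libraries, with rows grouped by role and ordered within a role by mean level in lit 7-d roots. The 2 lit 7-d columns at the left are brightest for most rows; AT3G28510 and AT5G46260 are brighter in the dark columns, and the 18S ribosomal RNA locus AT3G41768 is bright in 1 lit 7-d library.

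The 5 chosen iron genes had their highest means in lit 7-d roots, and IRT1, FRO2 and CYP82C4 were far lower in every dark library. The iron list of 25 loci as a whole differed less: it summed to 7723 and 7296 CPM in lit 7-d roots, 5481 and 5793 CPM in lit 4-d roots, 5197 and 5529 CPM in dark 7-d roots and 4900 and 5132 CPM in dark 4-d roots. IRT1 (AT4G19690, chr4:10707344-10709015, plus strand, TAIR10.1), the main iron importer of the root surface, had 289.8 and 519 CPM in lit 7-d roots, 17.6 and 77.2 CPM in lit 4-d roots, 0.112 and 0.036 CPM in dark 7-d roots and 0.0756 and 0.237 CPM in dark 4-d roots. Its dark values are between 1 and 6 counts a library. FRO2 (AT1G01580, chr1:208995-213082, plus strand), the ferric reductase that feeds IRT1, had 206 and 358 CPM in lit 7-d roots, 10.5 and 50.8 CPM in lit 4-d roots, 0.894 and 0.504 CPM in dark 7-d roots and 4.69 and 3.67 CPM in dark 4-d roots. Both genes were higher in replicate 2 than in replicate 1 at each lit age, and their lit 4-d replicates differed by more than 4 times. CYP82C4 (AT4G31940, chr4:15451988-15454224, plus strand), a cytochrome P450 that hydroxylates iron-mobilising coumarins, had 33.4 and 187 CPM in lit 7-d roots, 1.39 and 7.33 CPM in lit 4-d roots, 0.0372 and 0 CPM in dark 7-d roots and 0.0378 and 0 CPM in dark 4-d roots. The lit groups do not overlap for any of these 3 genes, and none has a dark library above its lowest lit 4-d library.

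NAS2 and bHLH38 were carried over the limit by 1 library each. NAS2 (AT5G56080, chr5:22711141-22712441, minus strand), which makes the metal chelator nicotianamine, had 18 and 179 CPM in lit 7-d roots, 13.8 and 29.2 CPM in lit 4-d roots, 13.8 and 11.2 CPM in dark 7-d roots and 10.4 and 9.36 CPM in dark 4-d roots. Its lit 7-d replicate 1 lay between both lit 4-d libraries. bHLH38 (AT3G56970, chr3:21084035-21085245, minus strand), a partner of FIT, had 79.1 and 5.17 CPM in lit 7-d roots, 9.29 and 10.6 CPM in lit 4-d roots, 0.968 and 0.576 CPM in dark 7-d roots and 4.99 and 5.84 CPM in dark 4-d roots. Here lit 7-d replicate 1 was the high one and replicate 2 was below both lit 4-d libraries. NAS2 and bHLH38 are the 2 of the 73 loci whose lit groups overlap. None of the 5 iron genes was called by edgeR between lit 7-d and lit 4-d roots, and 3 had an unadjusted p below 0.05. IRT1, FRO2 and CYP82C4 were called with DESeq2 (62 of the 73 loci) and with the replicate number as a block (52 of the 73). With no filter on low counts all 73 loci were called, these 5 iron genes among them. The loci were chosen on this difference, and nothing is read from these calls. All 5 were called higher in lit 7-d than in dark 7-d roots, where 36.2% of all genes tested were. FRO2 alone of the 5 was called in the interaction by edgeR, and leaving out any of 6 libraries (all but those of lit 4-d roots) ended that call. DESeq2 called FRO2 and bHLH38 there.

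Some other iron genes of the pathway also differed between the lit 7-d replicates, while others, such as MTPA2, differed little. Of the 25 loci listed for iron acquisition and coumarins, 24 were tested and 19 of these were not chosen. Among the 19, MTPA2, a metal tolerance protein of the cation efflux family, was higher in lit 7-d than in lit 4-d roots (74.8 and 76.1 CPM against 23.3 and 29.9 CPM, log2 fold change 1.48 ± 0.17 SE, edgeR adjusted p = 0.0068). NAS1, a second nicotianamine synthase, had 175 and 336 CPM in lit 7-d roots, against 73.5 and 117 CPM in lit 4-d roots (log2 fold change 1.40 ± 0.39 SE, edgeR adjusted p = 0.1), and DESeq2 called it. FRU, the locus of FIT, had 50.1 and 65 CPM in lit 7-d roots, against 71.3 and 77.7 CPM in lit 4-d roots (log2 fold change -0.40 ± 0.16 SE, edgeR adjusted p = 0.18). The relatives of bHLH38 were, like it, highest in lit 7-d replicate 1. Among them, bHLH39 had 105 and 23.2 CPM in lit 7-d roots, against 22.9 and 19.4 CPM in lit 4-d roots. BHLH100 had 12.2 and 0.524 CPM in lit 7-d roots, against 0.104 and 0.774 CPM in lit 4-d roots, and BHLH101 had 28.2 and 7.17 CPM in lit 7-d roots, against 9.22 and 9.58 CPM in lit 4-d roots. NAS4, a further nicotianamine synthase, had 50.8 and 4.88 CPM in lit 7-d roots, against 24.3 and 22.4 CPM in lit 4-d roots. The phloem iron transporter gene OPT3 had 188 and 42.9 CPM in lit 7-d roots, against 63.1 and 54.4 CPM in lit 4-d roots. Lit 7-d replicate 1 was thus the higher one for all 4 bHLH genes, NAS4 and OPT3, and replicate 2 for IRT1, FRO2, CYP82C4, NAS1 and NAS2. CYP82C2, the nearest copy of CYP82C4 at 91.5% identity over 1757 bases, was left out by its dark level. It had 169.8 and 262 CPM in lit 7-d roots, 3.36 and 5.23 CPM in lit 4-d roots, 30.2 and 94.5 CPM in dark 7-d roots and 1.17 and 2.13 CPM in dark 4-d roots.

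**Figure D3:**
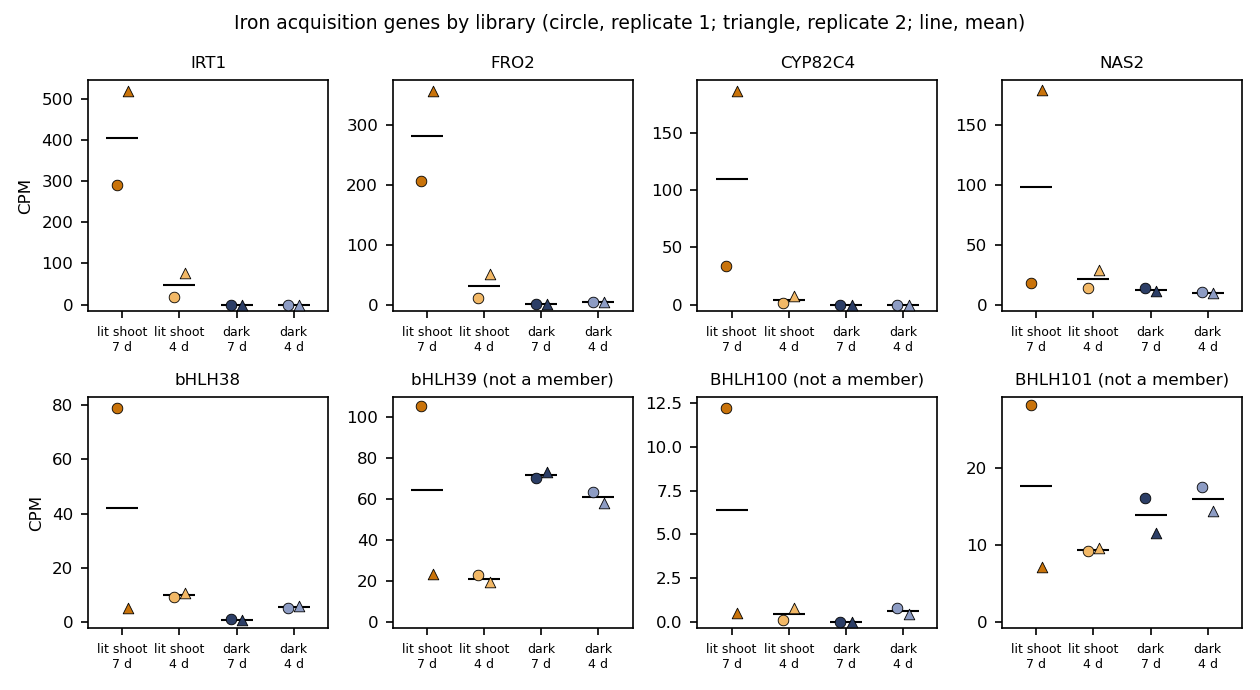
CPM of 8 iron genes in each library (circle, replicate 1; triangle, replicate 2; line, group mean), with lit-shoot roots at 7 and 4 days left of dark roots at 7 and 4 days and a separate vertical scale for each gene. IRT1, FRO2, CYP82C4 and NAS2 are highest in lit 7-d replicate 2, and bHLH38, bHLH39, BHLH100 and BHLH101 in lit 7-d replicate 1.

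Genes of methionine-derived glucosinolates formed the other large pathway among the chosen loci, and they cover consecutive steps. Chain lengthening was represented by MAM1 and IMS2, which encode condensing enzymes, by the isomerase subunits IPMI1 and IPMI2, and by the dehydrogenase IMD1. BAT5 encodes the plastid carrier of the 2-keto acids. CYP79F2 and CYP83A1 encode the cytochromes P450 that start core synthesis. IMS2 (AT5G23020, chr5:7718118-7721866, plus strand) had 99.3 and 166 CPM in lit 7-d roots, 9.81 and 26.9 CPM in lit 4-d roots and 0.276 to 0.894 CPM in the 4 dark libraries. IMD1 (AT5G14200, chr5:4576123-4578402, plus strand) had 82.6 and 139 CPM in lit 7-d roots, 15.1 and 28.4 CPM in lit 4-d roots and 0 to 0.158 CPM in the 4 dark libraries. Lit 7-d and lit 4-d libraries of both genes were far above every dark library. CYP79F2 (AT1G16400, chr1:5605044-5607498, plus strand) had 24.7 and 35.1 CPM in lit 7-d roots, 1.14 and 4.72 CPM in lit 4-d roots and 0 to 0.0395 CPM in the 4 dark libraries. CYP83A1 (AT4G13770, chr4:7990429-7992429, minus strand) had 17.5 and 56.7 CPM in lit 7-d roots, 0.59 and 2.03 CPM in lit 4-d roots and 0 to 0.0395 CPM in the 4 dark libraries. Neither P450 gene had a count in dark 7-d roots, and each had 1 count in dark 4-d roots. CYP79F1, a copy of CYP79F2 at 88.3% identity over 1817 bases, had at most 0.0774 CPM in any library. MAM1 (AT5G23010, chr5:7703041-7706973, plus strand) had 11.4 and 40.9 CPM in lit 7-d roots, 0.763 and 3.32 CPM in lit 4-d roots, 0 and 0 CPM in dark 7-d roots and 0.832 and 0.513 CPM in dark 4-d roots.

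The plastid carrier gene and both isomerase subunit genes also had both lit groups above every dark library. BAT5 (AT4G12030, chr4:7210807-7213376, plus strand) had 18.7 and 26.9 CPM in lit 7-d roots, 3.81 and 6.08 CPM in lit 4-d roots, 0.261 and 0.36 CPM in dark 7-d roots and 1.17 and 1.03 CPM in dark 4-d roots. IPMI1 (AT3G58990, chr3:21797058-21798303, minus strand) had 10.6 and 22.3 CPM in lit 7-d roots, 1.63 and 4.49 CPM in lit 4-d roots and 0.0756 to 0.504 CPM in the 4 dark libraries. IPMI2 (AT2G43100, chr2:17920647-17921844, plus strand) had 12.4 and 21.6 CPM in lit 7-d roots, 2.25 and 5.75 CPM in lit 4-d roots and 0.474 to 1.08 CPM in the 4 dark libraries. In each of the 8 genes both lit 7-d libraries stood above both lit 4-d libraries, and replicate 2 exceeded replicate 1 at both lit ages. Over the 17020 genes with a lit 7-d mean of at least 3 CPM, replicate 2 exceeded replicate 1 in 59.0% at 7 days and in 57.6% at 4 days. All 8 were at least 2 times higher in lit 4-d than in dark 4-d roots as well.

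The list of methionine-derived glucosinolate genes, which does not hold IPMI2, has 18 loci, of which 14 were tested and 7 were chosen. Beside the 5 chosen genes that were called (CYP79F2, BAT5, CYP83A1, IMD1 and IMS2), SOT17 and BCAT4 were called higher in lit 7-d than in lit 4-d roots. SOT17, a sulfotransferase of the last core step, had 53.2 and 40.8 CPM in lit 7-d roots, against 18.3 and 24 CPM in lit 4-d roots (log2 fold change 1.13 ± 0.18 SE, edgeR adjusted p = 0.017). BCAT4, the aminotransferase that opens chain lengthening, had 22.3 and 96.5 CPM in lit 7-d roots, against 0.52 and 1.25 CPM in lit 4-d roots (log2 fold change 6.04 ± 0.87 SE, edgeR adjusted p = 0.024). It was kept out of the 73 by 3 counts in dark 7-d roots against 1 in dark 4-d roots. MYB28, the main activator of the pathway, had 23.2 and 18.3 CPM in lit 7-d roots, against 6.55 and 10.02 CPM in lit 4-d roots (log2 fold change 1.31 ± 0.46 SE, edgeR adjusted p = 0.16). SUR1, the C-S lyase that all glucosinolates share, had 122 and 107 CPM in lit 7-d roots, against 76.1 and 91.3 CPM in lit 4-d roots (log2 fold change 0.43 ± 0.13 SE, edgeR adjusted p = 0.099). Of the 15 tested genes of tryptophan-derived (indole) glucosinolates, none was called higher by edgeR (9 had an unadjusted p below 0.05, and DESeq2 called 6) and CYP81F3 was called lower, with 18.7 and 20.3 CPM in lit 7-d roots, against 39.6 and 42.3 CPM in lit 4-d roots (log2 fold change -1.10 ± 0.19 SE, edgeR adjusted p = 0.024).

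**Figure D4:**
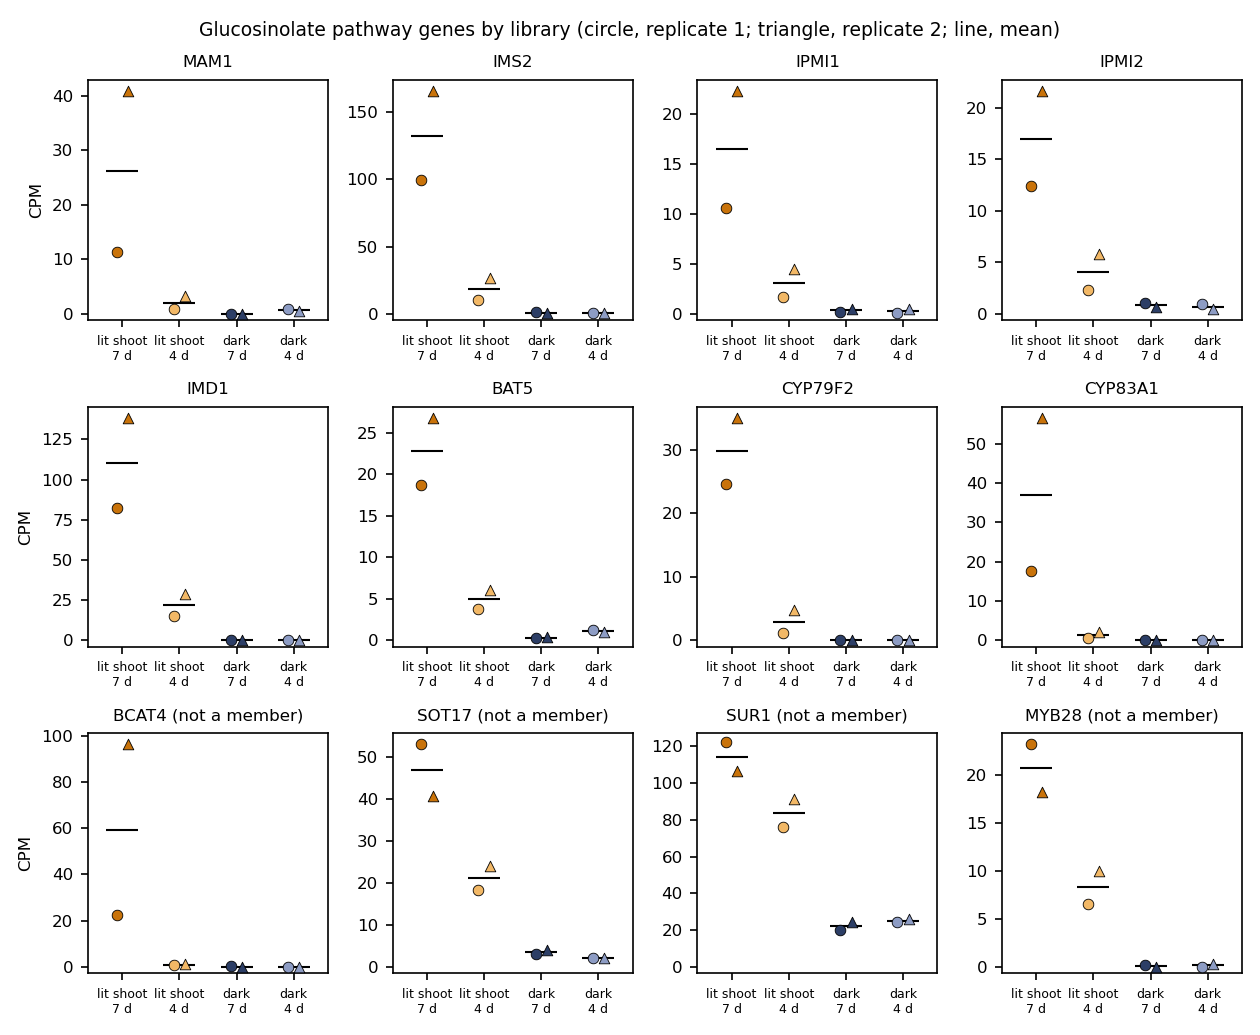
CPM of the 8 chosen glucosinolate genes and of 4 further genes of the pathway in each library (circle, replicate 1; triangle, replicate 2; line, group mean), with lit-shoot roots at 7 and 4 days left of dark roots at 7 and 4 days and a separate vertical scale for each gene. In the 8 chosen genes and BCAT4 lit 7-d replicate 2 is the highest library, whereas SOT17, SUR1 and MYB28 are highest in lit 7-d replicate 1.

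The upstream sequences of 5 of these genes are shown because each holds an AC element, a cytosine-rich motif bound by MYB factors, here in capitals. The stretches are the 200 bases before the annotated start of the gene in RefSeq's TAIR10.1, written 5′ to 3′ on the gene's own strand: chr1:5604844-5605043 for CYP79F2 (plus), chr4:7992430-7992629 for CYP83A1 (minus), chr2:17920447-17920646 for IPMI2 (plus), chr4:7210607-7210806 for BAT5 (plus) and chr3:21798304-21798503 for IPMI1 (minus).
CYP79F2: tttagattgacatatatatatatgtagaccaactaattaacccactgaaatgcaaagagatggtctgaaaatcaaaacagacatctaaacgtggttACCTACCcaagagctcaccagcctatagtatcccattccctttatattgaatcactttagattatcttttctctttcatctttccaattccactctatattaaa
CYP83A1: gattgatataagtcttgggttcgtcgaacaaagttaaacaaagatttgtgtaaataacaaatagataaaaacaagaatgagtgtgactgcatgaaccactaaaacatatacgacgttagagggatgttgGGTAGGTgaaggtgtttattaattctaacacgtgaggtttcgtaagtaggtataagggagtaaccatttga
IPMI2: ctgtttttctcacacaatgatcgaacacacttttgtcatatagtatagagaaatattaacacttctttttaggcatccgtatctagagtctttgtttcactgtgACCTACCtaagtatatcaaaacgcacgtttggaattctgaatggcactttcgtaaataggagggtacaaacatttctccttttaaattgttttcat
BAT5: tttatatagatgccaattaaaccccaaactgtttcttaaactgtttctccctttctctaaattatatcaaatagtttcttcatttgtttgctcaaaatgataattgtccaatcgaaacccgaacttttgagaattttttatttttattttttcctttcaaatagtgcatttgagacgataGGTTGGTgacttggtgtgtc
IPMI1: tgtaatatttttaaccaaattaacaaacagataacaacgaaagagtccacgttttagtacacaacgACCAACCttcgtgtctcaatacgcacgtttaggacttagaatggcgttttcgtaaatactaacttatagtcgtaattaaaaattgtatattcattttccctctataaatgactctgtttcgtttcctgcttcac
The first 3 hold ACCTACC, on the reverse strand in CYP83A1, and the last 2 hold ACCAACC, on the reverse strand in BAT5. The motif begins at position -104 in CYP79F2, -71 in CYP83A1, -96 in IPMI2, -20 in BAT5 and -134 in IPMI1, counted from the annotated start.

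Motifs were counted on both strands from 250 bases before to 50 bases after each annotated start. An AC element of any form was found at 16 of the 73 loci, or 21.9%, against 7.3% of 32834 promoters of the genome and 7.5% of the 20755 promoters of tested genes. The form ACCTACC stood at 6.85% of the loci, against 1.34% of all promoters and 1.43% of those of tested genes. For ACCAACC the shares were 6.85%, 3.38% and 3.45%. For ACCTAAC they were 9.59%, 2.86% and 2.88%. The 16 loci include 5 of the 8 glucosinolate genes and, from the iron genes, FRO2 and CYP82C4. The G-box CACGTG was found at 13.7% of the loci, against 6.9% of all promoters and 8.57% of those of tested genes. The W-box TTGACC was found at 9.59%, against 13.7% and 14.6%, and the phosphate motif GNATATNC at 6.85%, against 6.09% and 6.21%. The ethylene-related box GCCGCC stood at 1.37%, against 2.72% and 2.71%, and the evening element AAAATATCT at 4.11%, against 2.61% and 2.88%. TATAAA was found at 48 of the 73 loci, at 16432 of the 32834 promoters and at 10688 of the 20755 promoters of tested genes. The tracheary element motif of xylem genes was found at none of the 73 loci, at 0.445% of all promoters and at 0.516% of those of tested genes. A letter match is not a bound site, and a missing match says only that these letters were not in the window. Counts of different motifs may come from the same promoter, as for both forms of the AC element upstream of AT3G45680.

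Enzymes of amino acid, glutathione and sugar metabolism were next. AK3 (AT3G02020, chr3:337712-343912, minus strand), an aspartate kinase at the head of methionine, lysine and threonine synthesis, had 11.9 and 37 CPM in lit 7-d roots, 0.312 and 1.55 CPM in lit 4-d roots and 0 to 0.113 CPM in the 4 dark libraries. AK3 shares 40.9% of its length with AT3G02010 on the opposite strand, and the strand used in counting is not known. GSTU20 (AT1G78370, chr1:29484120-29485389, minus strand), a glutathione transferase of the tau class, had 18.3 and 29.4 CPM in lit 7-d roots, 3.57 and 5.78 CPM in lit 4-d roots and 0 to 0.302 CPM in the 4 dark libraries. AT2G31790, a UDP-glycosyltransferase, had 19.3 and 24.5 CPM in lit 7-d roots, 3.23 and 6.04 CPM in lit 4-d roots and 0 to 0.227 CPM in the 4 dark libraries. Replicate 2 was the higher library at both lit ages for these 3 genes, as for the glucosinolate genes.

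The lambda-class glutathione transferase GSTL1 (AT5G02780, chr5:630748-632792, plus strand) had 91.7 and 75.3 CPM in lit 7-d roots, 11.1 and 17.6 CPM in lit 4-d roots, 10.7 and 9.07 CPM in dark 7-d roots and 5.1 and 5.84 CPM in dark 4-d roots. It was the 1 chosen locus called higher in dark 7-d than in dark 4-d roots, by less than the limit allowed. VSP1, a vegetative storage protein known from jasmonate responses, had 51.4 and 25.5 CPM in lit 7-d roots, 4.96 and 5.23 CPM in lit 4-d roots, 0.67 and 0.468 CPM in dark 7-d roots and 2.95 and 2.88 CPM in dark 4-d roots. DJ1F, a glutamine amidotransferase-like protein, had 13.3 and 22.1 CPM in lit 7-d roots, 3.15 and 4.05 CPM in lit 4-d roots, 0.0372 and 0 CPM in dark 7-d roots and 1.66 and 0.592 CPM in dark 4-d roots. TPPH, a trehalose phosphate phosphatase, had 15.7 and 17.1 CPM in lit 7-d roots, 2.67 and 4.9 CPM in lit 4-d roots and 0.36 to 1.86 CPM in the 4 dark libraries. PLP6, a patatin-like protein, had 5.38 and 4.22 CPM in lit 7-d roots, 0.728 and 1.29 CPM in lit 4-d roots and 0.0756 to 0.596 CPM in the 4 dark libraries. VSP1, DJ1F, TPPH and PLP6 were higher in each lit 7-d library than in any other library. For VSP1 and DJ1F both dark 7-d libraries were below both dark 4-d libraries.

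Among genes of terpene, phenylpropanoid and methyl transfer reactions, AT5G37990 (chr5:15133867-15135169, minus strand), annotated as a methyltransferase that uses S-adenosylmethionine, had the highest level of the 73 loci per kilobase of exon. Its lit 7-d mean was 536 CPM per kilobase, against 273.5 CPM per kilobase for IRT1. AT5G37990 had 816 and 352 CPM in lit 7-d roots, 98.8 and 132 CPM in lit 4-d roots, 0.782 and 0.36 CPM in dark 7-d roots and 0.265 and 4.03 CPM in dark 4-d roots. Replicate 1 was the higher lit 7-d library by more than 2 times. Its neighbour AT5G38000 (chr5:15141650-15143542, plus strand), a zinc-binding dehydrogenase, had 14 and 9.0 CPM in lit 7-d roots, 3.36 and 2.21 CPM in lit 4-d roots and 0 to 0.592 CPM in the 4 dark libraries. MRN1 (AT5G42600, chr5:17053453-17058245, plus strand), the synthase of the triterpene marneral, had 47.3 and 47.1 CPM in lit 7-d roots, 11.2 and 10.3 CPM in lit 4-d roots, 1.9 and 2.41 CPM in dark 7-d roots and 8.2 and 20.2 CPM in dark 4-d roots. MRN1 libraries of lit 7-d roots were nearly equal, and dark 4-d replicate 2 was higher than either lit 4-d library. Of the P450 genes beside MRN1 on chromosome 5, CYP705A12 had 45.7 and 36.4 CPM in lit 7-d roots, against 19.4 and 23.2 CPM in lit 4-d roots (log2 fold change 0.93 ± 0.44 SE, edgeR adjusted p = 0.28). CYP71A16 had 66.5 and 57 CPM in lit 7-d roots, against 46.4 and 46 CPM in lit 4-d roots (log2 fold change 0.40 ± 0.30 SE, edgeR adjusted p = 0.5).

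CYP71A19 (AT4G13290, chr4:7740283-7743135, plus strand), a cytochrome P450, had 52.9 and 32.6 CPM in lit 7-d roots, 6.83 and 8.55 CPM in lit 4-d roots and 0 to 0.335 CPM in the 4 dark libraries. TPS12, a terpene synthase separated from CYP71A19 by 1 locus, had 8.86 and 6.58 CPM in lit 7-d roots, 1.21 and 0.553 CPM in lit 4-d roots and 0.072 to 0.186 CPM in the 4 dark libraries. Their copies TPS13 and CYP71A20, at 93.5% and 88.9% identity, were highest in dark roots. TPS13 had 4.41 and 2.32 CPM in lit 7-d roots, 8.88 and 4.9 CPM in lit 4-d roots, 39.4 and 18.1 CPM in dark 7-d roots and 67.8 and 70.8 CPM in dark 4-d roots. CYP71A20 had 18.3 and 10.8 CPM in lit 7-d roots, 18.6 and 11.9 CPM in lit 4-d roots, 323 and 164.5 CPM in dark 7-d roots and 245 and 269 CPM in dark 4-d roots. FAH1, the hydroxylase of syringyl lignin units, had 20.6 and 22.2 CPM in lit 7-d roots, 4.33 and 6.23 CPM in lit 4-d roots and 0.108 to 0.513 CPM in the 4 dark libraries. The O-methyltransferase genes AT1G77520 and AT1G77530, which are 86.8% identical over 788 bases and lie 1 locus apart, are both among the 73. AT1G77520 had 26.1 and 13.5 CPM in lit 7-d roots, against 2.53 and 2.76 CPM in lit 4-d roots, and AT1G77530 had 41.3 and 18.4 CPM in lit 7-d roots, against 5.48 and 5.64 CPM in lit 4-d roots. In 7 of the 8 genes of this role replicate 1 was the higher lit 7-d library, the reverse of the glucosinolate genes. Of 17 tested phenylpropanoid and monolignol genes, FAH1 was the 1 called higher, and ATCAD4 was called lower (log2 fold change -0.64 ± 0.13 SE, edgeR adjusted p = 0.038).

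The 11 lipid and surface genes included 5 of the 58 tested lipid transfer protein genes. AT5G05960 (chr5:1789538-1790833, plus strand), annotated in that family, had 152 and 108 CPM in lit 7-d roots, 29 and 35.7 CPM in lit 4-d roots, 1.79 and 1.87 CPM in dark 7-d roots and 10.6 and 12.2 CPM in dark 4-d roots. It shares 455 bases with AT5G05950 on the same strand, whose own level was 15.1 and 14.3 CPM in lit 7-d roots and 15.1 and 16.1 CPM in lit 4-d roots. AT2G16005, of a lipid recognition domain family, had 193 and 93.8 CPM in lit 7-d roots, 34.9 and 25.8 CPM in lit 4-d roots, 0.372 and 0.324 CPM in dark 7-d roots and 0.718 and 6.63 CPM in dark 4-d roots. AT5G01870, also annotated as a lipid transfer protein, had 15.6 and 27.1 CPM in lit 7-d roots, 2.91 and 1.92 CPM in lit 4-d roots, 2.23 and 0.108 CPM in dark 7-d roots and 33.8 and 16.1 CPM in dark 4-d roots. For AT5G01870 the dark 4-d mean was above the lit 7-d mean, and dark 7-d roots were lowest.

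LTP2 had 9.36 and 11.6 CPM in lit 7-d roots, 2.39 and 1.58 CPM in lit 4-d roots, 9.79 and 8.78 CPM in dark 7-d roots and 8.65 and 1.94 CPM in dark 4-d roots. It was about as high in dark 7-d as in lit 7-d roots. LTP3 had 13.2 and 7.46 CPM in lit 7-d roots, 1.46 and 1.51 CPM in lit 4-d roots and 0.144 to 0.756 CPM in the 4 dark libraries. AT4G12500 had 8.43 and 4.52 CPM in lit 7-d roots, 0.694 and 1.22 CPM in lit 4-d roots and 0 to 0.0395 CPM in the 4 dark libraries. The last 2 genes were below 1 CPM in every dark library. FAR1, a reductase that makes fatty alcohols of suberin, had 39.3 and 26.4 CPM in lit 7-d roots, 6.38 and 7.7 CPM in lit 4-d roots, 11.9 and 4.25 CPM in dark 7-d roots and 7.07 and 5.65 CPM in dark 4-d roots. It was the 1 gene called higher of 24 tested Casparian strip and suberin genes, and 4 others were called lower. These were CASP1, CASP5, PER64 and MYB36, with log2 fold changes of -0.87, -1.75, -0.72 and -0.92 (edgeR adjusted p = 0.041, 0.0053, 0.048 and 0.013). The GDSL lipase gene AT5G45670 had 9.32 and 8.21 CPM in lit 7-d roots, 2.88 and 1.29 CPM in lit 4-d roots, 0.149 and 0.216 CPM in dark 7-d roots and 2.31 and 0.276 CPM in dark 4-d roots. AT3G16370, of the same family, had 10.5 and 20.6 CPM in lit 7-d roots, 4.33 and 1.55 CPM in lit 4-d roots, 0.782 and 0.648 CPM in dark 7-d roots and 37.8 and 5.72 CPM in dark 4-d roots. Its dark 4-d replicate 1 was its highest library, and 23.7% of its length overlaps a locus of the opposite strand. ABCG15, an ABC transporter of the G class, had 3.1 and 4.84 CPM in lit 7-d roots, 0.936 and 0.589 CPM in lit 4-d roots and 0.18 to 0.819 CPM in the 4 dark libraries.

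PDF1 (AT2G42840, chr2:17826071-17827648, minus strand), protodermal factor 1, is an epidermal gene known from the shoot. It had 11.6 and 15.5 CPM in lit 7-d roots, 0.797 and 0.847 CPM in lit 4-d roots, 0.112 and 0.036 CPM in dark 7-d roots and 1.13 and 0.316 CPM in dark 4-d roots. PDF2 (AT4G04890, chr4:2476390-2482447, minus strand), a homeodomain factor of the shoot epidermis, had 5.76 and 8.64 CPM in lit 7-d roots, 0.763 and 0.774 CPM in lit 4-d roots, 0.894 and 0.288 CPM in dark 7-d roots and 0.832 and 0.316 CPM in dark 4-d roots. Both were among the 62 of the 73 loci that were higher in both lit 7-d libraries than in any other library. The related factor ATML1, which is not among the 73, had 1.93 and 4.81 CPM in lit 7-d roots, 1.46 and 0.147 CPM in lit 4-d roots, 1.75 and 1.26 CPM in dark 7-d roots and 7.18 and 1.86 CPM in dark 4-d roots and was not called between lit 7-d and lit 4-d roots (log2 fold change 2.02 ± 0.98 SE, edgeR adjusted p = 0.29). PDF1 is on the shoot marker list, whose sum given above contains it. Without PDF1 the other 15 markers summed to 52.6 and 54.7 CPM in lit 7-d roots, 45.5 and 40.8 CPM in lit 4-d roots, 49.8 and 48.7 CPM in dark 7-d roots and 63.8 and 49.1 CPM in dark 4-d roots. The part of shoot tissue in the values of PDF1 and PDF2 was not tested.

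The transporter genes code for carriers of sulfate, malate, amino acids and metals, among others. SULTR3;5 (AT5G19600, chr5:6612815-6617047, minus strand), a sulfate transporter of root vascular tissue, had 37.2 and 30.2 CPM in lit 7-d roots, 2.67 and 7.85 CPM in lit 4-d roots, 0 and 0 CPM in dark 7-d roots and 0.265 and 0.0395 CPM in dark 4-d roots. Of the 18 tested genes of sulfate, phosphate and cation transport, SULTR1;2 and HAK5 were also called higher. SULTR1;2, the main sulfate importer of the root, had 711 and 670.1 CPM in lit 7-d roots, against 349 and 386 CPM in lit 4-d roots (log2 fold change 0.89 ± 0.12 SE, edgeR adjusted p = 0.012). The potassium transporter gene HAK5 had 1.47 and 0.753 CPM in lit 7-d roots, against 0.0693 and 0 CPM in lit 4-d roots (log2 fold change 4.76 ± 1.07 SE, edgeR adjusted p = 0.046). ALMT1 (AT1G08430, chr1:2658602-2661310, plus strand), the malate exporter of root tips known from aluminium tolerance, had 28.7 and 30.6 CPM in lit 7-d roots, 5.76 and 8.29 CPM in lit 4-d roots, 2.38 and 2.12 CPM in dark 7-d roots and 2.87 and 2.05 CPM in dark 4-d roots. UMAMIT29, an amino acid exporter, had 17.4 and 41.8 CPM in lit 7-d roots, 4.51 and 8.44 CPM in lit 4-d roots, 14.4 and 9.11 CPM in dark 7-d roots and 9.26 and 6.36 CPM in dark 4-d roots. Its dark 7-d replicate 1 came close to its lower lit 7-d library. AAP6, an amino acid permease, had 9.83 and 8.54 CPM in lit 7-d roots, 1.46 and 1.36 CPM in lit 4-d roots, 2.46 and 1.8 CPM in dark 7-d roots and 2.0 and 0.592 CPM in dark 4-d roots.

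AT3G45680, of the major facilitator superfamily, had 35.1 and 24.7 CPM in lit 7-d roots, 4.26 and 5.78 CPM in lit 4-d roots and 0 to 0.079 CPM in the 4 dark libraries. AT4G08570, of a heavy metal transport family, had 4.41 and 6.71 CPM in lit 7-d roots, 0.797 and 1.44 CPM in lit 4-d roots and 0 to 0.0756 CPM in the 4 dark libraries. AT3G58060, of the cation efflux family, had 4.49 and 3.24 CPM in lit 7-d roots, 0.52 and 0.553 CPM in lit 4-d roots and 0.261 to 0.642 CPM in the 4 dark libraries. These 3 were low in every dark library. ABCB14, of the P-glycoprotein class, had 3.29 and 4.75 CPM in lit 7-d roots, 0.139 and 0.147 CPM in lit 4-d roots, 0.186 and 0.036 CPM in dark 7-d roots and 2.27 and 1.62 CPM in dark 4-d roots. Its lit 4-d libraries were below its dark 4-d libraries. The other transporter genes AT2G37900, AT1G33100 and ABCB2 had lit 7-d means of 4.72, 5.13 and 3.34 CPM, and lit 4-d means of 0.601, 1.24 and 0.765 CPM.

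Of the 7 wall, peroxidase and peptidase genes, AT2G33850, an E6-like protein gene, and SBT1.3, a subtilisin-like peptidase gene, had the highest ratios of lit 7-d to lit 4-d means, 29.4 and 30.5. AT2G33850 had 10.8 and 9.23 CPM in lit 7-d roots, 0.312 and 0.368 CPM in lit 4-d roots and 0 to 0.395 CPM in the 4 dark libraries. SBT1.3 had 4.22 and 10.2 CPM in lit 7-d roots, 0.0693 and 0.405 CPM in lit 4-d roots and 0 to 0.158 CPM in the 4 dark libraries. Both were below 1 CPM outside lit 7-d roots. AT1G67870, a glycine-rich protein gene, had 49.3 and 34.2 CPM in lit 7-d roots, 10.7 and 9.47 CPM in lit 4-d roots, 35.6 and 38.3 CPM in dark 7-d roots and 30.2 and 41.2 CPM in dark 4-d roots. It differed little between lit 7-d and both dark groups, and lit 4-d roots were the low group. The peroxidase gene AT2G18150 had 10.6 and 5.17 CPM in lit 7-d roots, 1.94 and 1.18 CPM in lit 4-d roots, 3.24 and 3.1 CPM in dark 7-d roots and 12.78 and 24.1 CPM in dark 4-d roots. Its highest libraries were those of dark 4-d roots. AT4G08780, a second peroxidase gene, had 6.62 and 11.6 CPM in lit 7-d roots, 0.832 and 0.774 CPM in lit 4-d roots and 0.288 to 0.632 CPM in the 4 dark libraries. Its copy Prx37, 93.4% identical over 1147 bases, did not share that order, with 18.6 and 35.4 CPM in lit 7-d roots and 31.5 and 35.8 CPM in lit 4-d roots. WAKL10, a wall-associated kinase-like gene, had 11.4 and 5.53 CPM in lit 7-d roots, 1.8 and 2.36 CPM in lit 4-d roots, 2.08 and 3.35 CPM in dark 7-d roots and 1.17 and 2.05 CPM in dark 4-d roots. The subtilase gene AT5G58840 had 3.21 and 3.01 CPM in lit 7-d roots, 0.381 and 0.626 CPM in lit 4-d roots and 0.144 to 0.869 CPM in the 4 dark libraries. Among the 58 tested class III peroxidase genes 3 were called higher, including both chosen ones, and 3 lower.

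The 5 regulators and receptors include PDF2, given above. AGL42 (AT5G62165, chr5:24964646-24968607, plus strand), a MADS-box factor known from the root quiescent centre and from flowering, had 13.7 and 10.8 CPM in lit 7-d roots, 0.173 and 0.479 CPM in lit 4-d roots, 0.708 and 0.612 CPM in dark 7-d roots and 0.718 and 0.158 CPM in dark 4-d roots. Its ratio of lit 7-d to lit 4-d means, 37.6, was the highest of the 73, and both lit 4-d libraries were below both dark 7-d libraries. AT2G26695, a zinc finger protein gene, had 3.6 and 6.32 CPM in lit 7-d roots, 0.797 and 0.332 CPM in lit 4-d roots and 0.144 to 0.335 CPM in the 4 dark libraries. AT3G18900, named for a leucine zipper protein, had 5.3 and 3.01 CPM in lit 7-d roots, 0.763 and 0.995 CPM in lit 4-d roots and 0.0745 to 0.395 CPM in the 4 dark libraries. AT5G46260, an immune receptor gene of the TIR-NBS-LRR class, had 3.52 and 3.08 CPM in lit 7-d roots, 0.763 and 0.479 CPM in lit 4-d roots, 8.97 and 8.74 CPM in dark 7-d roots and 4.31 and 6.48 CPM in dark 4-d roots. Dark 7-d libraries were the highest for AT5G46260. No member of the MYB or NAC, AP2/ERF or WRKY families was among the 73. These families held 174, 44 and 58 of the 20936 genes tested, and nothing is read from their absence.

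Of the 10 other or unknown loci, AT3G45160, a putative membrane lipoprotein gene, had 96.2 and 71.2 CPM in lit 7-d roots, 13.3 and 18.9 CPM in lit 4-d roots and 0 to 0.189 CPM in the 4 dark libraries. The TRAF-like genes AT4G01390 and AT4G00780, 87.6% identical over 905 bases, differed in lit 4-d roots. AT4G01390 had 42.9 and 39.3 CPM in lit 7-d roots, 7.56 and 7.11 CPM in lit 4-d roots and 0.288 to 1.55 CPM in the 4 dark libraries. AT4G00780 had 21.2 and 10.4 CPM in lit 7-d roots, 0.416 and 0.81 CPM in lit 4-d roots and 0.372 to 1.55 CPM in the 4 dark libraries. Its lit 4-d libraries were below both dark 4-d libraries, and those of AT4G01390 were above them. AT3G28510, a P-loop nucleoside triphosphate hydrolase gene, had 3.52 and 3.54 CPM in lit 7-d roots, 0.867 and 0.553 CPM in lit 4-d roots, 47.8 and 32.8 CPM in dark 7-d roots and 52.4 and 45.7 CPM in dark 4-d roots. Its lit 7-d level was thus far under its dark level at either age. AT2G23270 and AT4G37290 had their counts mainly in lit 7-d replicate 1. AT2G23270 had 14.6 and 3.11 CPM in lit 7-d roots, 1.28 and 2.65 CPM in lit 4-d roots and 0.372 to 1.26 CPM in the 4 dark libraries. AT4G37290 had 14.3 and 3.17 CPM in lit 7-d roots, 1.35 and 2.14 CPM in lit 4-d roots and 0.0372 to 0.529 CPM in the 4 dark libraries.

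Some of these loci need care. AT3G41768 is an 18S ribosomal RNA locus, 99.9% identical to AT2G01010, in libraries from which ribosomal RNA had been depleted. It had 189.9 and 17.5 CPM in lit 7-d roots, 14.3 and 13 CPM in lit 4-d roots, 12.1 and 20.1 CPM in dark 7-d roots and 22.9 and 24.6 CPM in dark 4-d roots, so that lit 7-d replicate 1 alone put it over the limit. AT3G53235 and AT4G01380 are covered over their whole length by AT3G53240 and AT4G01370 on the opposite strand, and bHLH38 over 31.9% of its length by AT3G56960. AT3G53235 had 5.07 and 4.45 CPM in lit 7-d roots, against 0.901 and 1.14 CPM in lit 4-d roots, and AT4G01380, annotated with a plastocyanin-like domain, had 4.22 and 3.96 CPM in lit 7-d roots, against 0.555 and 0.516 CPM in lit 4-d roots. AT1G54660, a transcribed pseudogene, had 20.4 and 16.1 CPM in lit 7-d roots, against 3.12 and 4.64 CPM in lit 4-d roots. A match of at least 85% identity over at least 100 bases was found for 24 of the 73 loci, and of at least 95% for 3. Both counts include AT5G05960, whose match of 455 bases with AT5G05950 is the overlap of these loci and not a separate copy. The sources used here do not say how multi-mapping reads were counted.

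The light difference of the 73 loci was of several kinds at 4 days. The lit 4-d mean was at least 2 times the dark 4-d mean for 43 loci, and within 2-fold for 20. For 10 loci the dark 4-d mean was at least 2 times the lit 4-d mean. At 7 days 64 were called higher in lit than in dark roots and 2 lower (AT3G28510 and AT5G46260), where 36.2% of all genes tested were called higher and 32.8% lower. At 4 days 30 were called higher and 8 lower, where 30.5% and 26.6% of genes tested were. Scaled by library totals alone, the 4-day comparison called 7906 genes higher and 4043 lower, in place of 6385 and 5559, and 31 of the 73 higher and 7 lower. These comparisons use the libraries on which the loci were chosen, and the counts are given as a description. In dark roots, 37 of the 73 loci were below 1 CPM in all 4 libraries, and 10 had no count at 7 days, among them CYP79F2, CYP83A1, MAM1 and SULTR3;5. The dark 7-d mean was at most 0.5 times the dark 4-d mean for 38 loci and above it for 22.

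**Figure D5:**
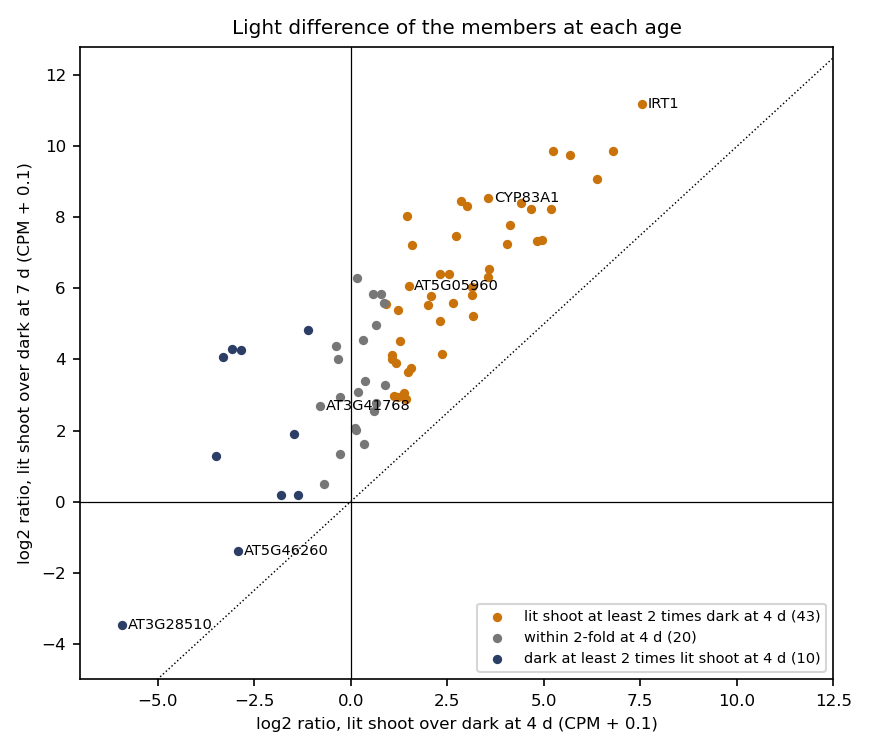
Log2 ratio of lit-shoot over dark group means, computed on CPM + 0.1, at 4 days (horizontal axis) and 7 days (vertical axis) for the 73 loci, coloured by the ratio at 4 days (43, 20 and 10 loci); the dotted line marks equal ratios. IRT1 lies at the upper right, and AT3G28510 and AT5G46260 lie below zero on both axes.

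The 10 loci with a dark 4-d mean at least 2 times the lit 4-d mean were AT1G67870, AT5G01870, AT4G00780, AT3G16370, LTP2, AT2G18150, ABCB14, AT3G28510, ABCB2 and AT5G46260. For 5 of them (AT5G01870, AT3G16370, AT2G18150, AT3G28510 and AT5G46260) the dark 4-d mean was also above the lit 7-d mean. These 5 loci met the requirement on lit-shoot roots, while their level in lit 7-d roots did not reach that of dark 4-d roots.

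The lit 7-d libraries differed from each other by at least 2 times for 19 loci and by at least 4 times for 6, which were CYP82C4, AT3G41768, NAS2, bHLH38, AT2G23270 and AT4G37290. Each lit 7-d library was at least 4 times each lit 4-d library for 30 loci, a count that the choice by ratio favours. Replicate 2 was the higher lit 7-d library for 33 of the 73 loci and the higher lit 4-d library for 53, and for 25 it was the higher one at both ages.

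Some of the 73 loci are neighbours. MAM1 and IMS2 are adjacent on chromosome 5, as are AT5G37990 and AT5G38000, and AT4G01380 and AT4G01390 are adjacent on chromosome 4. In all, 6 pairs, holding 11 loci, had at most 4 loci between them.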

How the data were processed

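Read counts per gene for 8 root libraries, 2 in each of 4 groups, were used as deposited by the authors. Per the labels' protocols, ribosomal RNA was depleted (Ribo-Zero) before library construction. The submitters' processing notes name CASAVA 1.8.2, FastQC, Trim Galore, TopHat2, Subread and genome build TAIR10; the sources used here give no settings, no strand use and no rule for multi-mapping reads. Groups were taken from the labels. The members, lists and roles were chosen with earlier results of these data known.

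CPM was computed from library totals. edgeR 4.0.16 (R 4.3.3, limma 3.58.1) fitted all 8 libraries together: TMM scaling (factors 0.912 to 1.09), a filter with a count minimum of 10, robust quasi-likelihood tests with 4 residual degrees of freedom, and Benjamini-Hochberg adjustment over 20936 genes. The precision of each group rests on 2 samples. The edgeR p-values use a spread estimated over all 8 libraries together and drawn toward that of other genes. This test gives no standard error. Each SE printed with an edgeR fold change is the absolute log2 fold change divided by the square root of the test's F statistic. Such an SE is approximate, and unreliable where a group has few or no counts. The script was tested on simulated counts in which the groups shared a common mean for most genes, unlike in these data. No result here rests on that test. DESeq2 1.42.0, other scalings, filters, thresholds, a replicate block and leaving out each library were alternatives. Of 33602 loci, 32835 were found in the RefSeq table of TAIR10.1, all 73 among them; symbols, products, coordinates and promoters come from there. Of 437 list symbols, 429 matched, in 20 lists, beside 24 families set by description; 14 symbols were matched by hand. Copies were sought with BLAST 2.17.0.

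Genes were named by a rule: members with the highest lit 7-d mean or ratio, the highest of each list or family, those beside a threshold, those lowest or highest in dark roots, those whose lit 7-d libraries differ most, and adjacent members. All other members and genes were named by role, list or as a close copy, after their values were seen. Replicate numbers were not used to pair samples in the main fit. Over 20936 genes, correlations of same-numbered deviations ran from -0.00835 to 0.116. Taken over all genes, these cannot show whether same-numbered samples shared differences in smaller sets of genes.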

Additional observations from a re-analysis of the deposited data

Results flagged for a closer look

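The light difference was tested for a change between 4 and 7 days, as a light by age interaction in the edgeR fit. It was called higher at 7 days for 34 of the 73 loci; the loci were chosen on the same libraries, so this count is a description. Outside the 73, the interaction was called higher for 4 of the 19 tested genes of the iron list and lower for 1, where 9.03% of all genes tested were called higher and 5.57% lower. The 4 were MTPA2 (1.04 ± 0.24 SE on the log2 scale, edgeR adjusted p = 0.023), IRT2 (7.18 ± 1.34, edgeR adjusted p = 0.015), BGLU42 (1.1 ± 0.20, edgeR adjusted p = 0.012) and MYB10 (4.67 ± 1.2, edgeR adjusted p = 0.037), and the lower one was NRAMP1 (-0.82 ± 0.17, edgeR adjusted p = 0.018). Of the methionine-derived glucosinolate list, 1 of the 7 tested genes outside the 73 was called higher, SUR1 (0.67 ± 0.19, edgeR adjusted p = 0.046), a share near that of all genes. The dark libraries hold few or no counts of some of these genes, and their fitted interaction and its SE then depend on the prior count.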

How the results depend on the processing

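Leaving out 1 library at a time, the chosen loci numbered 63 to 90, the 73 were called higher in lit 7-d than lit 4-d roots in 0 to 52 cases (50 with all libraries) and in the interaction in 20 to 32 (34), and in dark roots 0 to 2 were called higher (1). Over all genes the counts were 0 to 524 (446) for lit 7-d above lit 4-d roots, 632 to 1887 (1890) for the interaction, and 1122 to 2973 higher (2788) and 2365 to 4022 lower (3834) in dark roots. The 0 came without lit 4-d replicate 1, where 2716 genes had an unadjusted p below 0.05 with edgeR and no other tool was run; the lone sample of a group is assumed to vary like the others. The interaction counts were 20 without lit 4-d replicate 1, 21 without lit 4-d replicate 2 and 22 without dark 7-d replicate 2. With no filter on low counts, the interaction called 3110 genes and 69 of the 73, and lit 7-d above lit 4-d roots 1368 genes and all 73. Of the 73, dark roots then called 25 lower and 4 higher, and lit 4-d against dark 4-d roots 14 lower. DESeq2 called 771 genes higher in lit 7-d than lit 4-d roots. The loci numbered 114 with a floor of 1 CPM, 42 with 10 CPM and 30 with a ratio of 6. With 1 library left out, the loci chosen were partly different ones, and 55 to 72 of the 73 were still among them. This number was 55 without lit 4-d replicate 1 and 57 without lit 7-d replicate 1. It was 60 without dark 4-d replicate 2 and 61 without lit 7-d replicate 2. Scaling by totals alone shifted the median gene by 0.199 in lit 4-d against dark 4-d roots and 0.168 in lit 7-d against dark 7-d roots, with 66.2% and 59.9% of calls higher in place of 53.5% and 52.4%. The causes were not tested. With the replicate number as a block, 52 of the 73 were called between the lit ages and 36 in the interaction; neither these counts nor those over all genes moved by over 1.5 times, but between the lit ages the block called 3 of the 5 iron genes (none without it), and in the interaction 4 of the 8 glucosinolate genes (1 without it). DESeq2 called 3 of these iron genes and all 8 glucosinolate genes (5 with edgeR) between the lit ages, where it called 62 of the 73 loci (50 with edgeR). The loci were chosen on this difference, and nothing is read from these counts. Replicates of a pair and low dark counts limit the precision.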
